A study of Mus musculus with 2 samples.

Results

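Potassium channel genes were described here as the gene rows whose symbols start with Kcn, followed by the letters of a subfamily and a number. This rule found 75 genes of the 19430 listed in either of 2 single-cell libraries from mouse colon. The wild-type library listed 73 of them among 17809 genes and the reporter library 36 among 15972 genes, with 34 listed in both. The wild-type library held colon cells of C57BL/6 wild-type mice, in which sorted EpCAM+ CD45- epithelial cells and EpCAM- CD45- non-epithelial cells had been mixed at equal parts. The reporter library was sorted for mesenchymal cells with GFP from mice of the Pdgfra-H2B-eGFP strain, in which a nuclear green fluorescent protein is made under the control of the fibroblast gene Pdgfra. Each library pooled cells of 3 female mice without a label that ties a cell to a mouse, and the mice were 8 to 12 weeks old. The labels name no treatment. There was therefore 1 library per condition, no spread between animals could be measured, and the values below are descriptions of these libraries without a p-value.

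Potassium channels let potassium leave or enter a cell and so set its resting voltage. Most are assembled from pore-forming subunits, which are opened by voltage, by calcium, by metabolic state or by mechanical and chemical cues, and from auxiliary subunits that change how the pore opens. In the colon they are known for relaxing smooth muscle, for setting the tone of vessels through pericytes, for buffering potassium around nerve fibres through glia, and for supplying the driving force for chloride secretion in crypt epithelium. Of the 75 genes, 28 encoded voltage-gated pore subunits, 8 pores activated by calcium or sodium, 11 inward rectifiers, 10 tandem-pore-domain channels and 16 auxiliary subunits. The remaining 2, Kcnq1ot1 and Kcnmb4os2, are noncoding RNAs that overlap the genes in their names and were listed in the reporter library alone. All were found in the GENCODE annotation of GRCm38, the mm10 build.

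The tables held 7495 wild-type and 4409 reporter cells. Their values were whole-number counts of RNA molecules that had been adjusted for sequencing depth, called corrected counts below, with a median total per cell of 8972 for wild-type and 3150 for reporter cells. The libraries shared 1 cell barcode. Cells were grouped into clusters without use of the potassium channel genes and named from fixed marker lists, 10 genes each for the classes below, with "-like" added because the names were rebuilt here. CBFs and CTFs are the crypt-bottom and crypt-top fibroblasts of the study. Glia-like cells had on average 7.32 of the 10 glial markers above 0, pericyte-like cells 7.96 of 10 pericyte markers, smooth muscle-like cells 8.33, goblet-like cells 7.43 and enteroendocrine-like cells 6.65 of their own lists. RNA of other cells was also present: the epithelial list averaged 2.31 to 5.34 genes above 0 per cell in the non-epithelial classes, and the fibroblast list 5.6 genes in glia-like and 7.50 in smooth muscle-like cells. The part of such RNA in the values below was not tested.

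The sequences just before the start of the leading subunit genes of smooth muscle-like and pericyte-like cells are shown first, because they were the potassium channel genes found in the largest share of cells of these classes. They are the 250 bases upstream of the start in RefSeq on GRCm38.p6, read 5′ to 3′ on the strand of the gene, with CpG dinucleotides in capitals. Kcnmb1, the auxiliary subunit of the calcium-activated BK channel in muscle, has the window chr11:33962763-33963012 on the plus strand with 1 CpG. Kcnj8, the pore of a metabolically gated channel, has the window chr6:142571615-142571864 on the minus strand with 6 CpGs. Neither window overlapped an annotated exon.
Kcnmb1: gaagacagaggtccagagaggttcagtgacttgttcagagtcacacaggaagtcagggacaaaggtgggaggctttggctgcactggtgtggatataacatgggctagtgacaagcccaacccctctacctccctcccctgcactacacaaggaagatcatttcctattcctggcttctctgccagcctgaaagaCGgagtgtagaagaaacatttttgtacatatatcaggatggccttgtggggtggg
Kcnj8: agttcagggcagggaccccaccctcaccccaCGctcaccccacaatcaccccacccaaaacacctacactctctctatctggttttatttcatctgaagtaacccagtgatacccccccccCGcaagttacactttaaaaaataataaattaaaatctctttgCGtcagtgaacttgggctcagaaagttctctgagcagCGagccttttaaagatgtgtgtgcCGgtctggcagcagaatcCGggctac
Over the 56 genes of the set with an entry in the promoter table the median was 8 CpGs in this window, against 6 over all 27025 genes with an entry. A CArG box is a motif bound by a muscle transcription factor and was searched as its usual consensus on both strands. It was in 1.63% of all 32851 promoter windows of 300 bases and in 0 of the 75 windows of these 56 genes. Some of the genes have more than 1 listed start and so more than 1 window. Genes of the set without an entry were not searched. The result says only that these letters are not in these windows.

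In the wild-type library 37 of the 73 genes had a value above 0 in no less than 10% of the cells in some class, and 20 of them passed this level in exactly 1 class. Only 9 passed it in 3 or more classes, and 12 reached 50% of the cells of a class. The remaining 36 genes stayed under 10% in all 12 classes. Enteroendocrine-like cells had the most genes at this level, 19 of 73, followed by smooth muscle-like cells with 9, glia-like and goblet-like cells with 8 each, and 5 each in pericyte-like, transit-amplifying-like and enterocyte-like cells and in epithelial cells of no type. CBFs2-like cells had 4, CBFs1-like cells 2, and CTFs-like and blood endothelial-like cells 1 each. As background, 51.5% of all genes reached 10% of the cells in enteroendocrine-like cells, 40.2% in smooth muscle-like, 37.5% in glia-like, 49.5% in goblet-like, 33.9% in pericyte-like, 51.2% in transit-amplifying-like and 43.4% in enterocyte-like cells, 47.9% in epithelial cells of no type, 41.0% in CBFs2-like, 40.4% in CBFs1-like, 38.0% in CTFs-like and 33.4% in blood endothelial-like cells, so that a smaller share of potassium channel genes than of all genes passed this level. Enteroendocrine-like cells also had the highest depth, with a median of 3718.5 genes per cell against 2051 to 3429 in the other classes. After each cell had been thinned to 2000 corrected counts, 17 genes still reached 10% of a class, with 5 in enteroendocrine-like, 6 in goblet-like and 3 in glia-like cells, beside 19.4%, 14.4% and 16.2% of all genes at that depth. In the shallower reporter library 3 genes reached this level, of which CBFs1-like cells had 1, CBFs2-like cells 2 and CTFs-like cells 2, beside 23.8%, 20.2% and 27.9% of all genes. Among the 3 was the noncoding RNA Kcnq1ot1, which reached it in all 3 classes and was the only one in CBFs1-like cells.

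**Figure D1:**
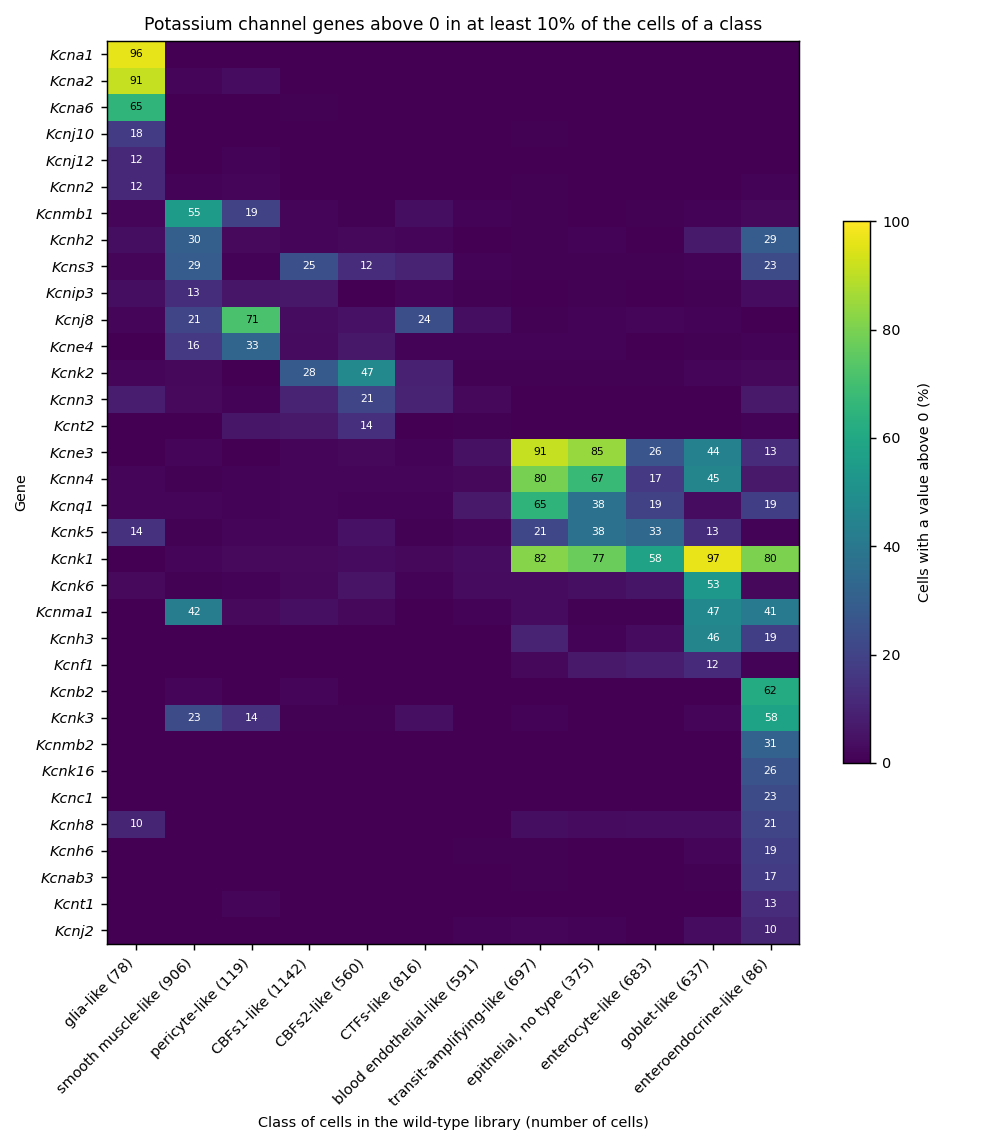
Share of cells with a value above 0 (colour, percent) for 34 of the 37 potassium channel genes that reached 10% in at least 1 class of the wild-type library (rows), by class with its number of cells (columns); shares of 10% or more are printed as whole percents. Most rows have their bright cells in a single column or in the 5 epithelial columns, such as Kcna1 at 96.2% in glia-like cells.

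Glia-like cells devoted the largest part of their transcripts to potassium channels. Of every 10000 corrected counts, 27.4 came from potassium channel genes in the 78 glia-like cells, against 11.3 in the 86 enteroendocrine-like cells. Transit-amplifying-like cells had 9.54, goblet-like cells 8.28, pericyte-like cells 7.67, smooth muscle-like cells 4.80, CTFs-like cells 1.47 and blood endothelial-like cells 1.07. In glia-like cells 92.5% of these counts belonged to Kcna1, Kcna2 and Kcna6. In smooth muscle-like cells the leading genes Kcnmb1, Kcnma1 and Kcns3 made up 45.7%. The composition differed in kind as well as in amount. Voltage-gated pores led in glia-like cells, inward rectifiers in pericyte-like cells and tandem-pore-domain channels in goblet-like cells (55.6%). None of these was particular to its class. Tandem-pore-domain channels also led in enterocyte-like (50.9%), CBFs1-like (50.9%), CBFs2-like (47.8%) and enteroendocrine-like cells (38.4%). Inward rectifiers also led in CTFs-like cells (29.1%) and voltage-gated pores in blood endothelial-like cells (40.4%).

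**Figure D2:**
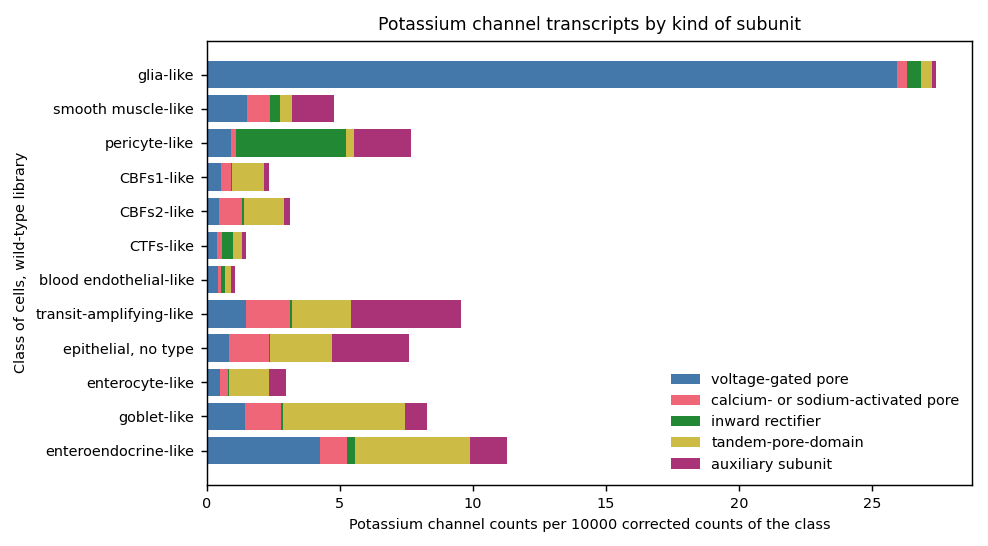
Corrected counts of potassium channel genes per 10000 corrected counts of a class (bar length), divided by kind of subunit (colours), in 12 classes of the wild-type library. The glia-like bar reaches 27.4 and is nearly all voltage-gated pore, and the shortest bar, of blood endothelial-like cells, ends at 1.07.

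The glial set was made of Shaker-type voltage-gated pores, which are best known for keeping nerve fibres from firing repeatedly. Kcna1 was above 0 in 96.2% of glia-like cells (exact 95% interval 89.2 to 99.2, here and below for counting error only) at a mean of 11.1 corrected counts per cell, and in at most 0.357% of the cells of the other 11 classes. Kcna2 was above 0 in 91.0% (82.4 to 96.3) at a mean of 7.90, with 3.36% in pericyte-like cells as its next highest share. Kcna6 followed at 65.4% (53.8 to 75.8) and a mean of 1.27, with at most 0.701% elsewhere. At 2000 corrected counts per cell the same genes were at 91.0%, 74.4% and 26.9%. These genes were nearly private to glia-like cells, and 70 of the 78 cells had Kcna1 and Kcna2 together. Kcna1, at chromosome 6 from 126640397 to 126646384, and Kcna6, at 126708329 to 126740674, are neighbours 61945 bases apart on the same strand, while Kcna2 lies on chromosome 3. Their neighbour Kcna5 was at 0 of 78 glia-like cells, which allows a share of up to 3.85%, and had its highest share, 6.72%, in pericyte-like cells.

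A weaker second group in glia-like cells consisted of Kcnj10, an inward rectifier known for potassium buffering in glia of the brain, at 17.9% (10.2 to 28.3), Kcnk5 at 14.1%, the inward rectifier Kcnj12 and the calcium-activated Kcnn2 at 11.5% each, and Kcnh8 at 10.3%. Of these, Kcnk5 and Kcnh8 had higher shares in epithelium, at 37.6% of epithelial cells of no type and 20.9% of enteroendocrine-like cells, while Kcnj12 and Kcnn2 reached at most 0.840% and 1.68% in the other classes. Kcnj10 was at 0 in all 3 fibroblast classes and in smooth muscle-like and pericyte-like cells, and reached at most 0.430% in the other 6 classes. Against fibroblasts and smooth muscle-like cells together, 8 of the 38 potassium channel genes with at least 20 corrected counts were higher by 2-fold or more in glia-like cells and 15 were lower. Of all genes, 10.2% were higher and 23.0% lower. The median log2 ratio of the channel genes was -0.76, and that of all genes -0.21. Kcnma1, which forms the BK channel pore, was at 0 of 78 glia-like cells, again with a limit of 3.85%, and at 12.9% of the comparison cells. Neuronal markers averaged 0.68 of 10 per glia-like cell. Among partner genes, the sodium channel gene Scn7a was at 98.7% of glia-like cells against 30.1%, and Fxyd1 and Atp1b2, regulatory and beta subunits of the sodium pump that works against these channels, were at 100% against 85.4% and 55.1% against 9.70%. Of the calcium entry and release list, 2 of 22 genes were higher and 12 lower in glia-like cells.

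Smooth muscle-like cells expressed both subunits of the BK channel, the large-conductance calcium- and voltage-activated channel that limits contraction. Kcnmb1 was above 0 in 55.2% of the 906 cells (51.9 to 58.5) at a mean of 0.881, and the pore gene Kcnma1 in 42.2% (38.9 to 45.5) at a mean of 0.672. In fibroblasts the shares were 1.87% and 2.38%, giving log2 ratios of the means of 4.82 and 4.22. Both were detected together in 229 cells, and Kcnmb1 was above 0 in 59.9% of the cells with Kcnma1 and in 51.7% of the cells without it. They were accompanied by Kcnh2, an ERG-type pore that repolarises muscle, at 30.4% against 1.67% in fibroblasts (log2 ratio 3.73), and by the acid-sensitive background channel Kcnk3 at 22.8% against 1.71% (3.29). The auxiliary subunits Kcne4 and Kcnip3 were at 16.4% and 12.9% against 3.1% and 3.42% in fibroblasts, with log2 ratios of 2.06 and 1.65. In all, 12 of the 34 genes with enough counts were higher in smooth muscle-like cells and 6 were lower, where 5.98% of all genes were higher and 9.18% lower. Kcns3, a silent subunit that modifies other voltage-gated pores, was the exception among the genes most often detected in muscle, at 29.0% there and 17.1% in fibroblasts, within the 2-fold limit. The genes lower in smooth muscle-like cells included Kcnk2 (2.32% against 26.3%, log2 ratio -3.81) and Kcnn3 (2.65% against 12.3%, -2.41), which are described with the fibroblasts.

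Partner genes of contraction moved beside these channels. The calcium channel pores Cacna1h and Cacna1c, which let in the calcium that starts contraction, were at 40.9% and 18.4% of smooth muscle-like cells against 1.79% and 1.63% of fibroblasts, and the receptor-operated channel Trpc6 was at 28.4% against 0.635%. Of the 22 genes of calcium entry and release with enough counts, 7 were higher and 4 lower. Abcc9, the sulfonylurea receptor subunit that pairs with Kcnj8, was at 25.2% of smooth muscle-like cells. The extent to which cells of vessels and of the muscle layers mix in this class was not resolved.

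The class held a cluster of 20 cells whose channel genes differed from those of the other 886 cells. Its leading genes, named after their values were seen, were Pcp4, Hand1 and Cckar. In it, 8 of the 10 smooth muscle markers were higher by 2-fold or more than in the clusters led by other marker lists. This reference leaves out the 886 cells. The mean share of smooth muscle markers above 0 per cell was 0.575 in the 20 cells and 0.839 in the 886 cells. Kcnd3, the pore of a fast-inactivating voltage-gated current, was above 0 in 100% of the 20 cells (83.2 to 100) at a mean of 3.85, and in 4.63% of the rest. Kcnip4, a calcium-binding subunit that joins this pore, was at 12 of 20 cells (36.1% to 80.9%) against 0.226%, and Dpp10, another of its known partners, at 70.0% (45.7 to 88.1) against 0.113%, although Dpp10 itself was among the leading genes of the cluster. Pore and both kinds of partner thus stood together in these few cells. Kcnj8 was at 85.0% against 19.6%, Kcnk3 at 70.0% against 21.8%, Kcnh2 at 65.0% against 29.6% and Kcnb2 at 40.0% against 0.339%. Kcns3 was at 0 of 20 cells, and Kcnmb1 at 5 of 20 cells against 55.9%. Without the cluster, 10 of 33 genes were higher in smooth muscle-like cells than in fibroblasts and 6 lower, and the log2 ratio of Kcnj8 over fibroblasts fell from 1.08 to 0.78. With the cluster kept, 5.98% of all genes were higher and 9.18% lower, and these shares were not computed without it.

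Pericytes, the contractile cells that wrap small vessels, were set apart from the smooth muscle-like class as a whole by the metabolically gated channel. Kcnj8, its pore, was above 0 in 71.4% of the 119 pericyte-like cells (62.4 to 79.3) at a mean of 3.32 corrected counts, against 21.1% (18.5 to 23.9) and 0.323 in smooth muscle-like cells, a log2 ratio of 3.32. Abcc9 was at 60.5% against 25.2% with a ratio of 2.86. Both genes were detected in 65 pericyte-like cells, and Abcc9 was found in 76.5% of the cells with Kcnj8 against 20.6% of those without. They lie 16248 bases apart on chromosome 6. Kcne4 was at 32.8% against 16.4% (ratio 2.51). Kcnj8 was not confined to pericyte-like cells. The small smooth muscle-like cluster described above had a higher share of it, and CTFs-like cells had it at 23.9%.

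Most other muscle channels were lower in pericyte-like cells. The pore gene Kcnma1 was at 2.52% against 42.2% (log2 ratio -3.97), Kcns3 at 0.840% against 29.0% (-4.34), Kcnh2 at 2.52% against 30.4% (-3.09), and Kcnmb1 at 19.3% against 55.2% (-1.76). The auxiliary gene Kcnmb1 was therefore detected in pericyte-like cells at a level at which its pore partner was almost absent. Of 19 genes with enough counts, 3 were higher and 10 lower, beside 9.05% and 20.5% of all genes, with a median log2 ratio of -1.07 against -0.29. Smooth muscle markers averaged 3.93 of 10 above 0 in pericyte-like cells and pericyte markers 1.43 in smooth muscle-like cells. Kcna5 and Kcnab1, a voltage-gated pore and a beta subunit, were under 10% but had their highest shares in pericyte-like cells, at 6.72% and 8.40%.

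The fibroblasts were low in potassium channel transcripts and carried a different set. The mechanically gated background channel Kcnk2 was above 0 in 47.1% of the 560 CBFs2-like cells (42.9 to 51.4), in 28.4% of the 1142 CBFs1-like cells (25.8 to 31.1) and in 9.07% of the 816 CTFs-like cells, and in 0 to 2.33% of the other 9 classes. Kcnn3, a small-conductance calcium-activated channel known in the colon from fibroblast-like cells that express Pdgfra, was at 21.1% (17.8 to 24.7), 9.98% and 9.44% in the same order. Kcnt2, a sodium-activated pore, was at 13.9%, 7.01% and 0.245%. Kcns3 had another order, at 12.5% in CBFs2-like, 24.6% in CBFs1-like and 9.68% in CTFs-like cells. Kcnj8 went the opposite way and was at 5.00%, 3.42% and 23.9% (21.0 to 27.0), so that CTFs-like cells had this single channel gene above 10%. Their Abcc9 share was 19.2%.

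Between the fibroblast groups of the wild-type library, 5 of 30 genes were higher in CTFs-like than in CBFs-like cells and 10 were lower, where 5.03% of all genes were higher and 8.28% lower. Kcnj8 had a log2 ratio of 2.68, Kcnk2 of -2.73, Kcnt2 of -3.33 and Kcnn3 of -1.02. The Kcnn3 value lay at the limit. In the reporter library 3 of 18 genes were higher and 1 lower, beside 4.90% and 3.20% of all genes, or 8.09% either way. Kcnj8 was at 14.5% of the 757 CTFs-like and 2.01% of the 3487 CBFs-like cells, a ratio of 2.63, and Kcnmb1 at 2.91% and 0.401%, a ratio of 1.62 that stood beside 1.25 in the wild-type library. Kcnt2 was at 0 of 757 CTFs-like cells, which allows 0.396%, and at 1.86% of CBFs-like cells. Of the 17 genes with enough counts in both libraries 12 had the same sign, 3 passed 2-fold in the same direction in both, namely Kcnj8, Kcnmb1 and Kcnt2, and 0 passed it in opposite directions. Of the 11647 genes with enough counts in both libraries 63.6% had the same sign and 6.20% passed 2-fold in the same direction in both. Only 0.0258% of them passed it in opposite directions. The counts of potassium channel genes with the same sign and in opposite directions were thus near the shares of all genes. Kcnk2 kept its sign at -2.73 and -0.80. Its share in the reporter library was 26.3% of CBFs2-like and 9.38% of CTFs-like cells, and in CBFs1-like cells it was no higher than in CTFs-like cells.

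**Figure D3:**
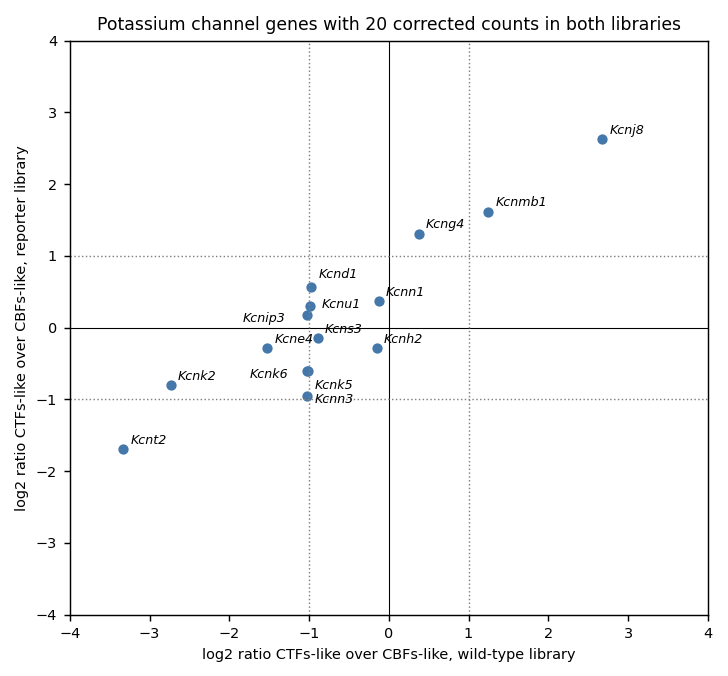
Log2 ratio of the mean corrected count of CTFs-like over CBFs-like cells in the wild-type library (horizontal) and in the reporter library (vertical) for 15 of the 17 genes with at least 20 corrected counts in both; dotted lines mark 2-fold. Kcnj8 lies at 2.68 and 2.63 in the upper right, and Kcnt2 at -3.33 and -1.69 in the lower left.

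The libraries differed in mouse line, sort, chemistry and depth, which cannot be told apart from each other. Thinned to 2000 corrected counts, Kcnk2 was at 20.9% (wild-type) and 19.4% (reporter) of CBFs2-like cells, at 14.1% and 6.57% of CBFs1-like cells, and at 3.19% and 5.81% of CTFs-like cells. Kcnj8 was at 8.82% and 9.38% of CTFs-like cells at the same depth. Among the fibroblast classes, CBFs2-like cells thus had the highest Kcnk2 share and CTFs-like cells the highest Kcnj8 share in both libraries. The reporter CBFs1-like cells fell into 3 clusters, in which Kcnk2 ranged from 2.60% to 13.2%.

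CTFs-like cells split into a larger and a smaller cluster in both libraries, in the wild-type library at the finer of the clusterings used. All 10 leading genes of the larger reporter cluster, among them Bmp3, Wif1 and Acta2, were higher in the larger wild-type cluster, and all 9 listed leading genes of the smaller one, among them Ptprr, Nrg1 and Agt, were higher in the smaller wild-type cluster. Kcns3 was above 0 in 29.6% (23.3 to 36.5) of the smaller cluster and 3.65% (2.30 to 5.47) of the larger one in the wild-type library, and in 13.4% (9.38 to 18.4) and 0.578% (0.119 to 1.68) in the reporter library. Kcnj8 had the reverse order, at 4.08% and 30.8% of wild-type and 6.30% and 18.3% of reporter cells. Abcc9 followed Kcnj8, at 3.06% and 25%, then 0.420% and 4.24%. Kcnk2 did not keep its order, at 3.06% of the smaller and 11.3% of the larger wild-type cluster but 16.0% and 6.36% in the reporter library. These differences between clusters are descriptions, since the clusters were made from the variable genes of the same cells, less the potassium channel genes.

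**Figure D4:**
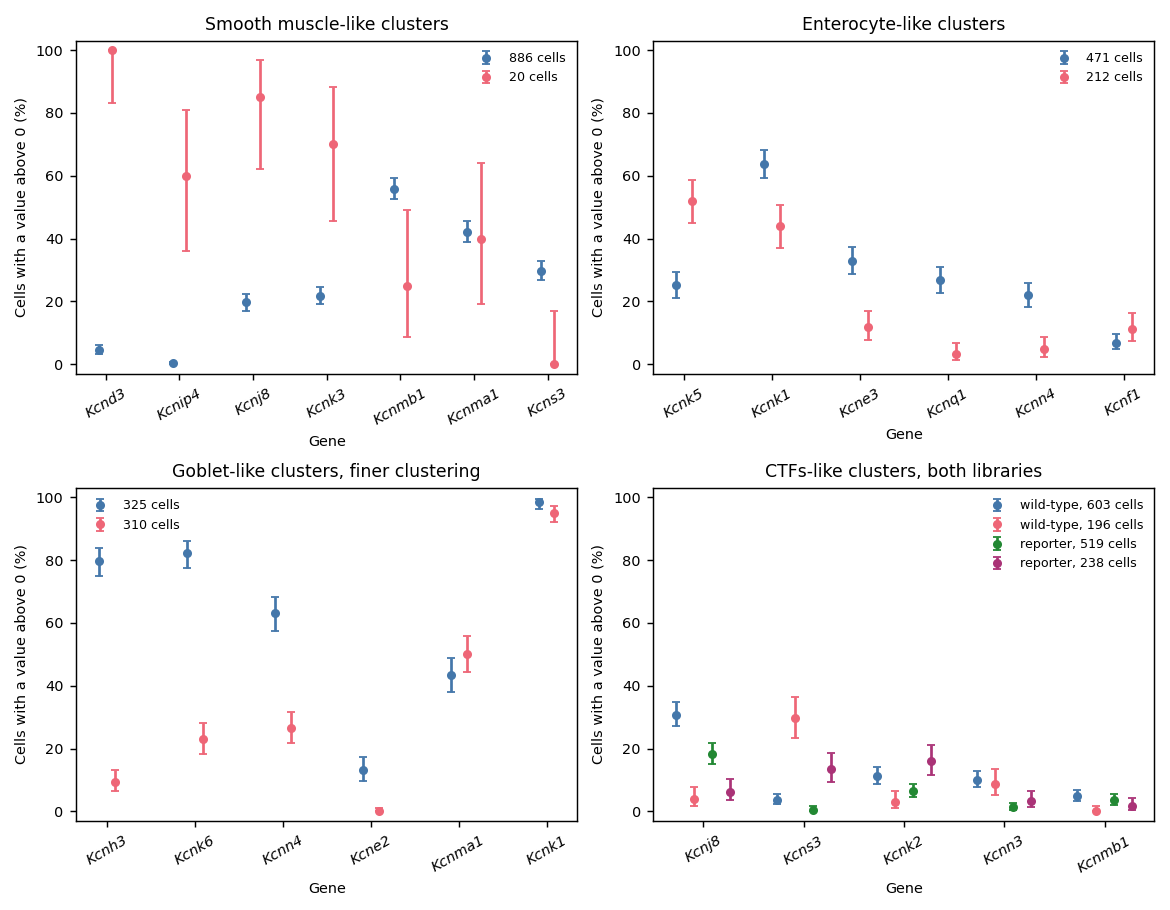
Share of cells with a value above 0 (percent, points with exact 95% binomial intervals that cover counting error only) for selected genes in the clusters within 4 classes, coloured by cluster with its number of cells. Kcnd3 reaches 100% in the 20-cell smooth muscle-like cluster, Kcnk5 51.9% and 25.1% in the enterocyte-like clusters, Kcnh3 79.7% in the larger goblet-like cluster, and Kcnj8 and Kcns3 have opposite orders in the CTFs-like clusters of both libraries.

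Kcnk1 was detected in most cells of each epithelial class, and several others were higher in the epithelial cells as a whole but not in each of their classes. Of 50 genes with enough counts, 20 were higher in the 2478 epithelial cells than in the 3424 fibroblast and smooth muscle-like cells and 13 were lower, beside 32.5% and 16.9% of all genes, 49.4% either way, so that the share of higher genes was near the background. Kcnk1, a weakly conducting tandem-pore-domain channel, was above 0 in 57.5% to 96.9% of the 5 epithelial classes and in at most 3.21% of the 7 non-epithelial classes, with a log2 ratio of 5.76. Kcne3 and Kcnq1, the auxiliary and pore subunits of the basolateral channel that drives chloride secretion, had ratios of 5.79 and 4.44. The calcium-activated Kcnn4, which serves the same purpose after calcium signals, had a ratio of 5.22, and Kcnk5, an alkaline-activated background channel, of 3.36. Of the sodium pump and colonic ion transport list, 14 of 20 genes were higher in epithelium and 6 lower. Kcnma1 did not separate epithelium from stroma, at 14.5% and 12.9%, and was found in single classes on both sides.

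The secretory set of Kcne3, Kcnq1 and Kcnn4 had its highest shares in the transit-amplifying-like class, named for the proliferating cells of the crypt. At the finer clustering 472 of its 697 cells fell into a stem-like cluster and 225 into a transit-amplifying-like one. In transit-amplifying-like cells Kcne3 was at 91.1% (88.7 to 93.1) with a mean of 3.94, Kcnn4 at 79.6% (76.4 to 82.6) with 1.54 and Kcnq1 at 65.1% (61.5 to 68.7) with 1.16, and 430 of 697 cells had Kcnq1 and Kcne3 together. In enterocyte-like cells the shares were 26.4% (23.1 to 29.8), 16.5% and 19.5%. In goblet-like cells Kcne3 and Kcnn4 were at 44.0% and 45.4% but Kcnq1 at 3.45%, a log2 ratio over the other epithelial cells of -3.77. In enteroendocrine-like cells Kcne3 was at 12.8%, Kcnn4 at 6.98% and Kcnq1 at 18.6%. The chloride channel gene Cftr, which works with this set, was at 82.8% of transit-amplifying-like, 36.2% of enterocyte-like, 8.95% of goblet-like and 6.98% of enteroendocrine-like cells. At the finer clustering the stem-like cluster, with Kcne3 at 95.2% and Kcnq1 at 68.3%, and the transit-amplifying-like cluster, with 82.7% and 58.7%, both had this pair above the enterocyte-like, goblet-like and enteroendocrine-like cells. The epithelial cells of no type, led by Krt36 and Fut9, had 84.5%, 67.2% and 37.6% for Kcne3, Kcnn4 and Kcnq1. Their Kcne3 share was above the 82.7% of the finer transit-amplifying-like cluster.

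Enterocyte-like cells, the absorptive cells of the surface, had no potassium channel gene higher by 2-fold and 19 of 32 lower than the other epithelial cells, beside 6.50% and 24.0% of all genes, or 30.5% either way. The median log2 ratio was -1.31, and -0.45 over all genes. Leaving out cells above 10% mitochondrial counts brought the count to 14 of 27 and the Kcnq1 ratio from -1.18 to -0.46. The share of all genes was not computed at this setting. Kcnk5 stood against this trend at 33.4% (29.9 to 37.1) and 20.8%, a ratio of 0.79 that is within the limit. The class had a cluster of 471 cells and one of 212 cells led by Atp12a, the potassium-absorbing proton pump of the colon surface, which was at 79.2% of the smaller cluster and 1.06% of the larger. In the cluster with Atp12a, Kcnk5 was at 51.9% (44.9 to 58.8) against 25.1% (21.2 to 29.2). Kcnq1 was at 3.30% (1.34 to 6.68) against 26.8% (22.8 to 31.0), Kcne3 at 11.8% against 32.9% and Kcnn4 at 4.72% against 21.9%. Within enterocyte-like cells Kcnk5 and the secretory set therefore ran in opposite directions.

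Goblet cells, which make mucus, had their own channels. Of 32 genes, 9 were higher in goblet-like than in the other epithelial cells and 9 lower, beside 9.13% and 12.2% of all genes, or 21.4% either way. Kcnk6, a relative of Kcnk1, was at 53.2% (49.3 to 57.1) against 4.18% with a log2 ratio of 4.07. Kcnh3, an EAG-type voltage-gated pore mostly known from brain, was at 45.5% (41.6 to 49.5) against 5.70% with a ratio of 3.76. Kcnma1 was at 46.6% (42.7 to 50.6) against 3.37% with 3.47, Kcnk1 at 96.9% against 71.8% with 1.20, and the silent subunit Kcnf1 at 12.4% against 5.27% with 1.17. In enteroendocrine-like cells alone Kcnma1 was at 40.7% and Kcnh3 at 18.6%, so these genes were not particular to goblet-like cells. Kcnk5, of the same tandem-pore-domain family, was lower at 13.0% against 28.1%.

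At the finer clustering 635 of the 637 goblet-like cells fell into a pair of clusters that differed in their channels. In the cluster of 325 cells with Reg4, a gene chosen after its values were seen, at 26.5%, Kcnh3 was at 79.7% (74.9 to 83.9), Kcnk6 at 82.2% (77.5 to 86.2) and Kcnn4 at 63.1%. In the cluster of 310 cells with Reg4 at 87.1%, the same genes were at 9.35% (6.35 to 13.2), 22.9% (18.3 to 28.0) and 26.5%. Kcnma1 ran level across both, at 43.4% and 50%, and Kcnk1 at 98.5% and 95.2%. Kcne2, an auxiliary subunit, was at 13.2% of the former and 0 of the 310 cells of the latter (upper bound of the interval 1.18%). Another cluster named goblet-like at this setting held 118 cells, of which 117 had stayed unnamed before.

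Enteroendocrine cells release hormones when their voltage changes, and they had the most potassium channel genes at 10% of cells, although not after thinning to equal depth, where goblet-like cells had 6 and they had 5. Of 32 genes, 16 were higher in the 86 enteroendocrine-like cells than in the other epithelial cells and 10 lower, beside 21.2% and 18.5% of all genes, or 39.7% either way. Kcnb2, a delayed rectifier, was at 61.6% (50.5 to 71.9) against 0.0836% with a log2 ratio of 6.90, and Kcnk3 at 58.1% (47.0 to 68.7) against 0.836% with 6.37. Kcnmb2, which inactivates the BK channel, was at 31.4% (21.8 to 42.3) against 0.0418%. Kcnk16, an alkaline-activated channel known from the endocrine pancreas, was at 25.6% (16.8 to 36.1) against 0 of the 2392 other epithelial cells. The ERG-type genes Kcnh2 and Kcnh6 were at 29.1% and 18.6%, the fast delayed rectifier Kcnc1 at 23.3% and the silent subunit Kcns3 at 23.3%. The genes lower in these cells included Kcnk5 at 1.16% against 25.1%, Kcnn4 at 6.98% against 50.5%, Kcnk6 at 2.33% against 17.3% and Kcne3 at 12.8% against 59.0%. Kcnj11, the pore of the channel that couples glucose to secretion in the pancreas, was at 5.81% (5 cells), and its receptor subunit Abcc8 at 19.8% (12 to 29.8). Of the 5 cells with Kcnj11, 4 had Abcc8. Of the calcium entry and release list, 13 of 18 genes were higher and 2 lower, and the sodium channel gene Scn3a was at 83.7% against 0.167%. Neuronal markers averaged 2.27 of 10 above 0 in this class and at most 0.68 in all others.

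The pore gene Kcnma1 had its highest shares in 3 classes, 1 of muscle and the others of epithelium. Among the auxiliary genes Kcnmb1, Kcnmb2 and Lrrc26, each class had a different one at the highest share. In smooth muscle-like cells, at 42.2%, Kcnmb1 was at 55.2%, Kcnmb2 at 0 of 906 cells (limit 0.331%) and Lrrc26 at 0.552%. In goblet-like cells, at 46.6%, Lrrc26, a leucine-rich repeat subunit that lets the BK channel open without a calcium rise, was at 91.8% (89.4 to 93.8) and Kcnmb1 at 1.10%. In enteroendocrine-like cells, at 40.7%, Kcnmb2 was at 31.4%, Kcnmb1 at 2.33% and Lrrc26 at 8.14%. Within goblet-like cells Lrrc26 was at 92.6% of the cells with Kcnma1 and at 91.2% of the cells without it. Kcnma1 and Kcnmb2 were found together in 12 of the 86 enteroendocrine-like cells. There Kcnmb2 was at 34.3% of the cells with Kcnma1 and at 29.4% of the rest, so most cells with Kcnma1 had no detected Kcnmb2.

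In the 39 immune-like cells, a small class that is not among the 12 compared above, Kcnn4 was at 41.0%. In the reporter library the noncoding Kcnq1ot1, which is transcribed from the opposite strand within Kcnq1 on chromosome 7, was at 12.6% of CBFs1-like, 20.4% of CBFs2-like and 17.0% of CTFs-like cells, where Kcnq1 itself was at 0 in all 4244 cells of these classes.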

How the data were processed

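Single-cell RNA-seq was done on 2 libraries of mouse colon cells with droplet kits, version 3 for the wild-type and version 2 for the reporter library. Per the methods of the study, the authors aligned reads to mm10 with Cell Ranger 3.0.1, kept cells with 500 to 7500 genes and under 25% mitochondrial counts (wild-type) or 500 to 4000 genes and under 10% (reporter), and normalized with SCTransform in Seurat 3.1 under R 3.6.2. The deposited wild-type table holds 7495 cells, more than the final number that the methods give, and 7394 of them lie within the stated limits as computed from the corrected counts; all 7495 were used. The deposited values were depth-corrected whole numbers, treated as a score and not as raw counts, beside a table of their natural log after adding 1. This correction makes totals alike within a library, 6120 to 16389 and 2314 to 4432, and does not restore the molecules of shallow cells.

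Cells were clustered in Seurat 5.3.0 under R 4.3.3 on 3000 variable genes less the potassium channel genes, with 30 principal components at resolution 0.45 (wild-type) and 0.3 (reporter). Clusters were named from marker lists, by a naming rule set after the clusters were seen, and 766 wild-type and 114 reporter cells stayed unnamed. A doublet caller marked 0.0934% and 0.113% of cells and so did not work, and doublets were not removed.

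In Python 3.11.15, each class was given by its mean and its share of cells above 0 with an exact Clopper-Pearson 95% interval. Intervals and limits for a count of 0 (3 cells of the class) cover counting error only. Classes were compared by the log2 ratio of means with a pseudocount of 0.01, which understates changes of low genes, for genes with at least 20 corrected counts over both, and called at 2-fold. No test was made, since cells are not replicates. In simulated data for smooth muscle-like cells over fibroblasts, 92.0% of genes with a 0.25-fold and 100% with a 4-fold change were called. Of 13329 unchanged genes, 0 were called. Only this comparison, of 906 and 2518 cells, was simulated, and not those of smaller classes such as the 78 glia-like cells. Spread between animals could not be measured, so these shares do not give the error rate of the 2-fold calls in the real libraries. Potassium channel genes, partner lists and markers were chosen with earlier results of these data known. Genes were named if past 2-fold and in at least 10% of the higher class (up to 10 per comparison), or among the 8 highest means at 10% in a class, or in a fixed set of 12. Values for clusters within a class were chosen after they were seen. Some genes that the rule would name are not reported here, but they stay in the counts and totals.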

Additional observations from a re-analysis of the deposited data

How the results depend on the processing

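Of the 11 counts of genes, 96 of their values under alternatives stayed within 1.5 times and 25 did not. Thinned to 2000 corrected counts per cell, the genes past 2-fold were 7 instead of 13 for pericyte-like over smooth muscle-like cells, 15 instead of 23 for glia-like cells, 5 instead of 15 for wild-type CTFs-like over CBFs-like, 20 instead of 33 for epithelium, 8 instead of 18 for goblet-like, 8 instead of 19 for enterocyte-like and 10 instead of 26 for enteroendocrine-like cells, and 17 instead of 37 genes reached 10% of a class. With at least 100 corrected counts required, which tests fewer genes, the counts in that order were 7, 14, 5, 10 (goblet-like), 9 and 11, and 1 instead of 4 in the reporter comparison of CTFs-like cells. With a pseudocount of 0.05 they were 4 (CTFs-like, wild-type), 1 (reporter), 17 (epithelium), 8 (goblet-like) and 9 (enterocyte-like), and 1 instead of 3 genes passed in both libraries. With at least 1 corrected count, 21 genes passed for pericyte-like cells. With 15 principal components or with log-normalization 7 passed for CTFs-like cells in the reporter library, and with finer clustering 5 passed in both libraries. The share of all genes past 2-fold was not computed under these settings, so these counts have no background beside them. The limit of 20 corrected counts was kept after thinning, which lowers the counts set against it. The causes were not tested.

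Of 907 values of the 75 named ratios under alternatives, 0 changed sign and 888 stayed past 2-fold. Kcnj8 of smooth muscle-like over fibroblast cells did not, at 0.62 after thinning and 0.91 with the larger pseudocount. Not all of the 907 values could move. Changing the least number of corrected counts leaves each ratio as it was. The doublet setting removed only 7 wild-type and 5 reporter cells, and the mitochondrial setting 0 reporter cells. Without the 3043 wild-type cells above 10% mitochondrial counts the ratios of enterocyte-like cells were -0.93 for Kcne3, -0.85 for Kcnk1 and -0.82 for Kcnn4. Leaving out the 20-cell cluster or the epithelial cells of no type was added after the data were seen. No paired analysis was possible because each condition had 1 library. Shares near 10% are limited by depth, with a median of 2804 genes per wild-type and 1381 per reporter cell.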

Other observations

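An unnamed wild-type cluster of 100 cells carried both pericyte and blood endothelial markers. It had Kcnj8 at 65.0%, its partner Abcc9 at 72.0%, Kcne4 at 42.0% and Kcna5, a voltage-gated pore, at 18.0%. The part of doublets in these cells was not tested.

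In the reporter library 51 cells had epithelial markers although the sort was for GFP-positive mesenchymal cells. Kcnk1 was at 23.5% of them, Kcne3 at 19.6% and Kcnq1 at 11.8%. Another 114 reporter cells, led by immune genes and left unnamed, had Kcnn4 at 14.0%.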
